A study of Mus musculus with 12 samples.

Results

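The 10 genes described here carry bile acids across the ileal epithelium or report their presence: Slc10a2, Fabp6, Slc51a, Slc51b, Fgf15, Nr0b2, Nr1h4, Abcc2, Abcc3 and Gpbar1. They were taken by symbol from the 45808 genes of the deposited table, and all 10 were found. RNA sequencing was done on polyadenylated RNA of distal ileal tissue from BALB/c mice, an inbred strain. There were 6 libraries from PBS controls, which received phosphate-buffered saline, and 6 from mice given P. gingivalis, a mouth bacterium linked to gum disease and called the treated group here. No allele or transgene is named for either group, and the sources used here do not state age, sex, dose, route or duration. The title of the series asks how P. gingivalis bears on inflammation of the intestine. Nothing in the labels says that each library came from a separate mouse, so the p-values measure the spread between these libraries, which may be partly technical.

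Bile acids are made in the liver, secreted into the gut to dissolve fat, and recovered in the last part of the small intestine. There the sodium-dependent transporter Slc10a2 takes them up at the brush border, Fabp6 binds them in the cytosol, and the heteromer of Slc51a and Slc51b passes them to the blood. Inside the enterocyte they activate the nuclear receptor Nr1h4, also called FXR, which raises Fabp6, Slc51a, Slc51b, the corepressor gene Nr0b2 and Fgf15, a hormone that tells the liver to slow bile acid synthesis.

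Values are normalized counts, that is, reads per gene scaled by the authors with a size factor for each library. Total depth ran from 6553306 to 10378841 reads per library. Libraries are called PBS and P. gingivalis replicates 1 to 6 after their titles, and the main test did not pair them by number. Of the 10 members, 8 had a mean of at least 10 normalized counts over the 12 libraries and were tested. Nr0b2 and Gpbar1, with means of 5.68 and 2.93, were not.

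A group of 3 libraries stood apart from the other 9, with marker levels that go against a distal label, and the group differences and ratios of the tested members are given with and without them. In PBS replicate 6 and P. gingivalis replicates 1 and 5, Fabp1, which encodes a fatty acid carrier typical of the proximal gut and is no member, lay between 16938 and 26745 normalized counts. In the other 9 libraries it lay between 18.3 and 1821. Fabp1 is the gene by which the 3 were set apart. Of the 7 other genes listed as markers of the proximal small intestine, 4 were higher in each of these 3 libraries than in any other. These were Lct, Apoa4, Slc46a1 and Onecut2. The remaining markers, Ada, Cybrd1 and Slc40a1, overlapped. Their medians were 1762, 81.9 and 140 in the 3 libraries, against 1272, 64.6 and 200 in the 9. Summed over the 8 with Fabp1, levels spanned 9546 to 114619 among PBS libraries and 1456 to 165812 among treated ones. Of 5 distal markers that are no members, the hormone genes Pyy and Gcg were lower in all 3 than in any other library, while Nts and the vitamin B12 receptor genes Cubn and Amn overlapped. P. gingivalis replicate 6 lay at the other end. It had 0 reads of Gata4, a transcription factor of the proximal small intestine, and 498 normalized counts of Car1, a carbonic anhydrase of the large intestine, which had at most 2.71 elsewhere. Its Vil1, an enterocyte brush border gene, was the lowest of the 12 at 8625. The large intestine marker Aqp8 had at most 1.74 normalized counts in any library, and Hoxb13 at most 1.43.

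Slc10a2 (chromosome 8, 5083219 to 5105351 on GRCm38) is the entry step. Its level was 90.7 normalized counts in PBS replicate 6, and in the treated group it was 23.9 in replicate 1 and 57.2 in replicate 5. The other 9 libraries ran from 1236 to 4007, with a median of 2141. The median of the 3 was thus 37.5 times lower than the median of the 9. P. gingivalis replicate 6 held the highest level of all, and PBS replicate 4 the lowest of the 9.

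Fabp6 (chromosome 11, 43596049 to 43601540) spanned the widest range. It had 4, 2 and 14 reads in the same 3 libraries, against 11246 to 69383 normalized counts in the other 9. Pooled over the 3, the mean of the 9 was 3952 times as high, with an exact Poisson 95% interval of 2559 to 6470 that covers counting error only. An earlier analysis of these data had already noted this gap in Fabp6, so it is given as a description. PBS replicates 1 and 2 had the highest values, at 54062 and 69383.

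The exporter subunits were lower in the 3 libraries and still well measured there. Slc51a (chromosome 16, 32474504 to 32487879) had 614 to 814 normalized counts there and 2083 to 5153 in the other 9. Slc51b (chromosome 9, 65412714 to 65422955) had 199 to 253 and 453 to 1585. The medians of the 9 were 4.55 and 4.03 times those of the 3. Both subunits therefore differed between the same libraries by a far smaller factor than Slc10a2 and Fabp6 did.

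Among the signalling genes, Fgf15 (chromosome 7, 144896531 to 144900953) had 1 read in PBS replicate 6 and 0 reads in P. gingivalis replicates 1 and 5. It had 13.9 to 250.6 normalized counts in the other 9. Nr0b2 (chromosome 4, 133553376 to 133556536) had 0 reads in all 3 and 1 to 24 reads in the 9. With 3 reads over the 3 libraries as the limit that a count of 0 allows, Nr0b2 was at least 6.55-fold lower than the mean of the 9, counting error only. The receptor itself, Nr1h4 (chromosome 10, 89454234 to 89533585), had 289 to 346 in the 3 and 485 to 1133 in the 9, a ratio of medians of 2.04. The receptor transcript was thus present in libraries where Fgf15 and Nr0b2 were at or near 0. Gpbar1 (chromosome 1, 74278550 to 74279624), a membrane receptor for bile acids, had 1 read in each of the 3 and 2 to 5 reads in each of the 9, too few for a difference to be read at this depth.

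The transporters of conjugates did not follow. Abcc2 (chromosome 19, 43782192 to 43840740), an apical export pump for conjugated compounds, had 2143 to 2470 normalized counts in the 3 libraries and 578 to 2538 in the 9. Its lowest value was in P. gingivalis replicate 6, the library with the highest Slc10a2. Abcc3 (chromosome 11, 94343295 to 94392997), the basolateral counterpart, had 497 to 630 and 399 to 588. Over the 12 libraries Abcc3 had the smallest coefficient of variation of the 10 members, 13.7%, against 114% for Fgf15. In all, 6 of the 8 tested members lay lower in each of the 3 libraries than in any of the 9, beside 4.93% of the 15025 genes tested. None lay higher in each of the 3, beside 6.46% of genes. The libraries were grouped by their Fabp1 level and not by treatment, so no test was made of this division. The count of 6 includes Fabp6, whose gap in these data was already known, so it is a description.

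**Figure D1:**
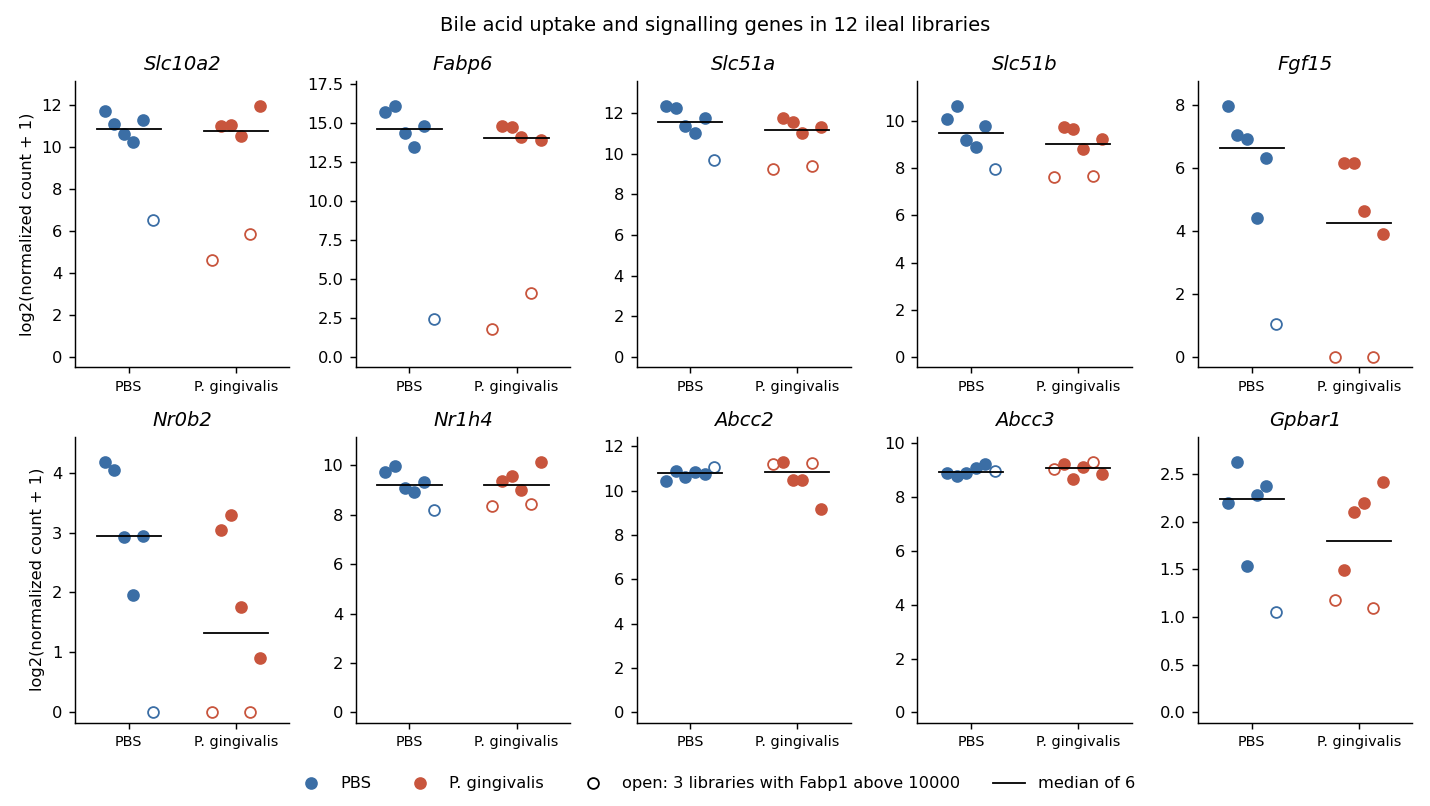
Each panel plots 1 gene in the 12 libraries as log2(normalized count + 1), by group, with the median of 6 as a bar and the 3 libraries with high Fabp1 as open circles. Slc10a2, Fabp6, Slc51a, Slc51b, Fgf15, Nr0b2, Nr1h4 and Gpbar1 are lowest in the open circles of both groups, while Abcc2 and Abcc3 are not.

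**Figure D2:**
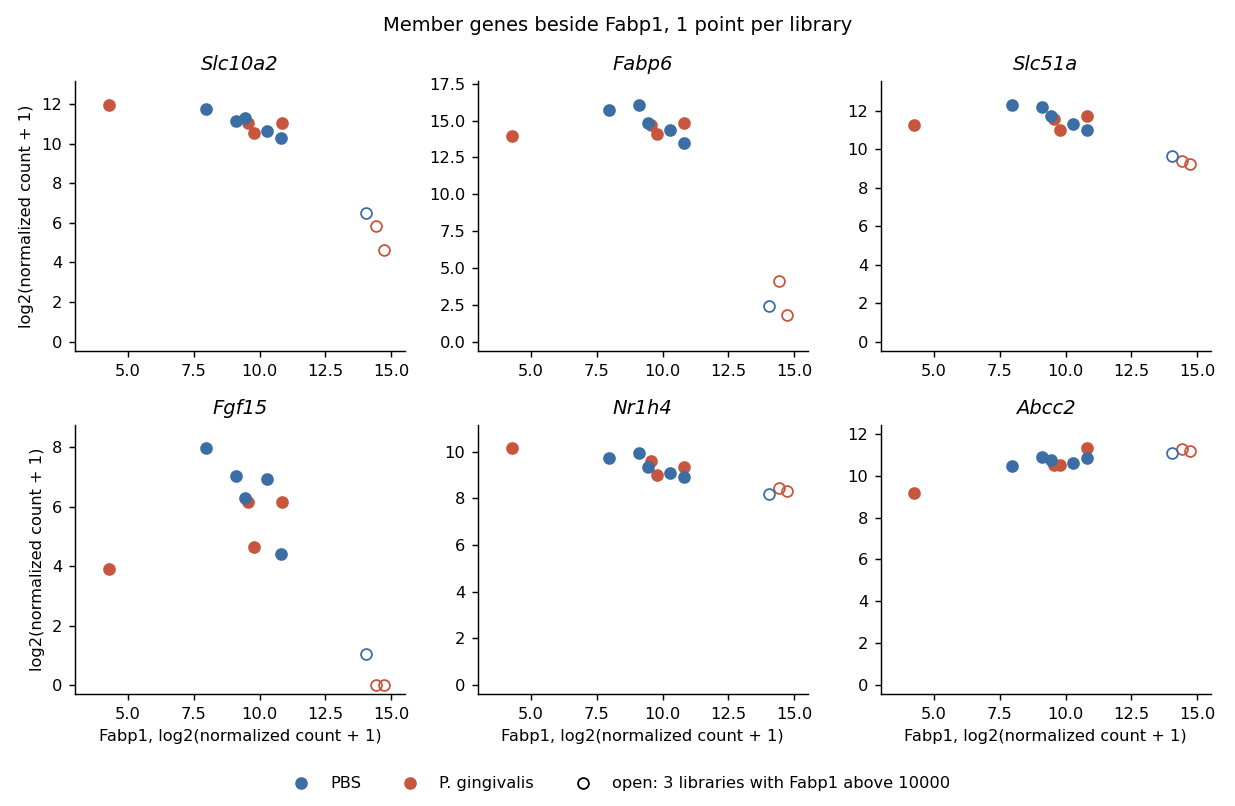
The level of 6 members is plotted against that of Fabp1, both as log2(normalized count + 1), with 1 point per library and open circles for the 3 libraries with Fabp1 above 10000. The open circles hold the lowest Slc10a2, Fabp6, Slc51a, Fgf15 and Nr1h4, and P. gingivalis replicate 6, the point at the far left, holds the lowest Abcc2.

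The stretches upstream of 6 genes are printed because 5 of the genes were lower in the 3 libraries and the last, Abcc2, was not. They are RefSeq sequences of GRCm38.p6, made from another strain, C57BL/6J, and 8 of the 10 members were in the table of 250 bases before and 50 after each start. Each run ends before the start of transcription in both RefSeq and GENCODE, 5′ to 3′ on the strand of the gene. Capitals mark matches on either strand to 6 motifs. The nuclear receptor half-site was searched as AGGTCA. Its inverted repeat, with 1 base between the half-sites, was allowed 2 mismatches, and an exact repeat would also hold the half-site. The half-site of HNF1, a factor of gut and liver, was searched as GTTAAT. The motif of caudal factors such as Cdx2 was searched as TTTATNG, where N is any base. For GATA factors the letters were AGATAA, and for the E-box they were CACGTG. The positions are chr8:5105352-5105537 for Slc10a2, chr11:43601563-43601812 for Fabp6, chr16:32487880-32488129 for Slc51a, chr9:65422956-65423023 for Slc51b, all on the minus strand, and chr4:133553126-133553375 for Nr0b2 and chr19:43782058-43782191 for Abcc2 on the plus strand. The runs of Slc10a2, Slc51b and Abcc2 are shorter than 250 bases because the 2 starts differ.
Slc10a2: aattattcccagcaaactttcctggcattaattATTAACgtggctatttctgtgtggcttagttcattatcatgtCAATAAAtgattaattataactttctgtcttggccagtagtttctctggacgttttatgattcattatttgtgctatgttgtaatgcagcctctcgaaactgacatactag
Fabp6: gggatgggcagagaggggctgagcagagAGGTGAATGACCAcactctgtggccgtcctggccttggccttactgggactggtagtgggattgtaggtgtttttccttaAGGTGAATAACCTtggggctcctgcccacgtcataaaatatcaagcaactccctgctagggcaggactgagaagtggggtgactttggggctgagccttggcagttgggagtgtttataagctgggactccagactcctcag
Slc51a: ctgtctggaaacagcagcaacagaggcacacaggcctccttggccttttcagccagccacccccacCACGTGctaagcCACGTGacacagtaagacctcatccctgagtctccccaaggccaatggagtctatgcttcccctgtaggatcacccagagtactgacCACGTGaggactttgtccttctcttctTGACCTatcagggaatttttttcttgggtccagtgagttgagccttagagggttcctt
Slc51b: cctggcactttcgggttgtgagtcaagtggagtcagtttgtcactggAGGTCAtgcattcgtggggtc
Nr0b2: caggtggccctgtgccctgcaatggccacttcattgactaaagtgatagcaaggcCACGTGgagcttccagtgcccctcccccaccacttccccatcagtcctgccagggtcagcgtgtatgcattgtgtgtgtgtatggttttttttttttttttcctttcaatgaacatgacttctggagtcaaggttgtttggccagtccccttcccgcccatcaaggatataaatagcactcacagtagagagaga
Abcc2: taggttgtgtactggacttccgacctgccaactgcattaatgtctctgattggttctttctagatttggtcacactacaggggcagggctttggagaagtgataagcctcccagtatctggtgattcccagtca

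Fabp6 held 2 stretches close to the inverted repeat, AGGTGAATGACCA and AGGTGAATAACCT, beginning 222 and 142 bases upstream of the RefSeq start. Such a stretch was found in 0.959% of the 32851 windows of 250 bases upstream of a start. Such windows were also searched for the other motifs, and counts here are for the whole 250 bases, printed or not. Slc51a, Slc51b and Abcc2 each held 1 half-site AGGTCA, as 14.0% of windows did, and that of Abcc2 lies outside its printed stretch. Nr0b2 held neither the half-site nor the inverted repeat. Slc51a held CACGTG 3 times and Nr0b2 once, a sequence found in 6.02% of windows. Slc10a2 held 1 match to GTTAAT, found in 6.43% of windows, and 3 to TTTATNG, found in 9.81%, of which 1 is in the printed stretch. AGATAA, found in 9.99% of windows, was in none of the 6. These are matches of letters and not measured binding.

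Levels of different genes can be compared per length of exon, here the merged exons of GENCODE vM21. In the 9 libraries Fabp6 had a median of 56229 normalized counts per kilobase and lay above the next gene, Slc51b, in each library, with ranges that did not overlap. Slc51b followed at 1158 and Slc51a at 952 per kilobase. Slc51b lay above Slc51a in 7 of the 9 libraries, and the 2 ranges overlapped. Slc10a2 came next at 516 and Nr1h4 at 285, with Nr1h4 the lower of the pair in all 9 libraries. Abcc2 stood at 182, Abcc3 at 82.6 and Fgf15 at 23.1 per kilobase. Nr0b2 and Gpbar1, at 5.91 and 3.34, overlapped. In the 3 libraries with high Fabp1 the order changed. Slc51b led with a median of 287, Abcc2 followed at 273 per kilobase, and Fabp6 stood at 9.02. Fabp1, which is no member, stood at 39776 per kilobase there and at 1355 in the 9. The merged exons of Fgf15 include retained introns, which lowers its level per kilobase.

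Between the treatment groups no member passed the test, with limma adjusted p from 0.992 to 0.996 over 12 libraries and at 0.9995 over the 9. Over all 15025 genes tested with limma, 0 passed at an adjusted p of 0.05 (percent called 0), and 560 genes (3.73%) had an unadjusted p under 0.05, none of them a member. With 9 libraries 1 of 15000 genes passed (0.00667%) and 445 (2.97%) had an unadjusted p under 0.05, again with no member among them. DESeq2 on the recovered reads called 31 of 20877 genes (0.148%), and 0 members. Of the 8 tested members 7 had negative and 1 positive differences, with a median of -0.66. Over all 15025 genes 7674 differences were negative and the median was -0.0039. With 9 libraries 6 members had negative and 2 positive differences, with a median of -0.34. There 7784 of 15000 genes had negative differences, with a median of -0.0078. Each difference is the treated mean minus the PBS mean of log2(normalized count + 1), a scale that understates the change of weakly expressed genes. In bulk tissue, fewer cells of a type and less RNA per cell cannot be told apart.

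Fgf15 had the smallest p among them. In PBS it had a lowest value of 1 read, a median of 100.3 and a highest of 250.6 normalized counts, and in the treated group 0, 18.9 and 70.5. The groups overlapped, with both treated libraries at 0 reads among the 3 with high Fabp1. The log2 difference was -2.15 (SE 1.33, 95% interval -5.00 to 0.71, limma adjusted p = 0.992). Without the 3 libraries it was -1.32 (SE 0.67, 95% interval -2.79 to 0.14, limma adjusted p = 0.9995), from 120.5 ± 84.9 (SD, n = 5) in PBS to 44.6 ± 29.96 (SD, n = 4) in the treated group. Without P. gingivalis replicate 6 as well it was -0.89 (SE 0.63). Nr0b2, also an Nr1h4 target, had 57 reads in the 6 PBS libraries and 19 in the 6 P. gingivalis libraries, not scaled for depth. Of the 57, 24 were in PBS replicate 1 and 15 in PBS replicate 2. Without the 3 libraries, where it had 0 reads, Nr0b2 averaged 9.78 ± 6.22 normalized counts (SD, n = 5) in PBS and 4.81 ± 3.78 (SD, n = 4) in the treated group. With the filter lowered to a mean of 1 its log2 difference over 12 libraries was -1.18 (SE 0.75, limma adjusted p = 0.995).

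The uptake and export genes overlapped between the groups as well. Slc10a2 had a lowest value of 90.7, a median of 1931 and a highest of 3438 in PBS, and of 23.9, 1787 and 4007 in the treated group. Its log2 difference was -1.09 (SE 1.27) with 12 libraries and 0.13 (SE 0.32) with 9, so the sign turned. On the recovered reads of the 12 libraries it was -0.18 with edgeR and -0.19 with DESeq2, which model counts and not log values. Fabp6 had 4.32, 25129 and 69383 in PBS and 2.52, 16624 and 29066 in the treated group. Its difference was -2.23 (SE 2.75, 95% interval -8.14 to 3.68) with 12 libraries and -0.50 (SE 0.49, 95% interval -1.57 to 0.58) with 9. With edgeR and DESeq2 it was -1.05 and -1.05. The highest Fabp6 of the P. gingivalis libraries lay below the highest 2 of PBS, and the other 3 PBS libraries with Fabp6 reached 11246 to 28818.

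For Slc51a the PBS values were 814, 3043 and 5153 and the treated ones 614, 2294 and 3428, which differ by -0.68 (SE 0.52) in log2. Slc51b had 253, 730.4 and 1585 and then 199, 526.2 and 852, a difference of -0.63 (SE 0.47). In the 9 libraries these became -0.33 (SE 0.26) and -0.35 (SE 0.32). Each of the 95% intervals with 9 libraries included 0, and reached -0.91 for Slc51a and -1.06 for Slc51b. Differences as low as these lie within the intervals. Leaving out 1 library at a time gave -1.03 to -0.39 for Slc51a and -0.92 to -0.39 for Slc51b. Without PBS replicate 6, which is 1 of the 3 libraries with high Fabp1, Slc51a and Fgf15 had an unadjusted limma p under 0.05, as 820 of 15017 genes did (5.46%), and both had an adjusted p of 0.844. In that setting Fgf15 differed by -3.06 and Slc51a by -1.03. It keeps P. gingivalis replicates 1 and 5, so libraries with high Fabp1 are then in the treated group only. Without all 3 such libraries the differences were -1.32 and -0.33.

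Nr1h4 and the conjugate pumps had the narrowest intervals with 12 libraries. Nr1h4 values were 289, 588 and 989 in PBS against 321, 585 and 1133 with treatment, and the log2 difference was -0.05 (95% interval -0.77 to 0.66) with 12 libraries and 0.12 with 9. Abcc2 had 1406, 1799 and 2143 and then 578, 1887 and 2538, a difference of -0.12 (95% interval -0.76 to 0.53) with 12 libraries and -0.34 (SE 0.32) with 9. Abcc3 had 435, 484 and 588 and then 399, 539 and 630, a difference of 0.07 (95% interval -0.18 to 0.31) with 12 libraries and -0.0048 with 9. For Abcc3 the interval therefore spans less than 1 log2 unit. Gpbar1 had 22 reads in PBS and 15 in the treated group, and with the lowered filter its difference was -0.26 (SE 0.35).

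Markers of other cell types were read beside these values. The summed level of 5 fat cell genes spanned 511 to 2682 in PBS and 0 to 873 in the treated group, with all 5 at 0 reads in P. gingivalis replicates 1, 2 and 3. All 5 had negative differences, with a median of -4.89 and limma adjusted p from 0.228 to 0.329. The summed level of 10 enterocyte genes overlapped, at 153980 to 210250 in PBS against 86907 to 267386. That of 6 smooth muscle genes lay between 12078 and 20970 in PBS, against 7683 to 27197 in treated libraries, where the next highest after P. gingivalis replicate 6 was 15481. All 6 had negative differences, with a median of -0.53, a smallest unadjusted p of 0.0165 and limma adjusted p of 0.992. All 6 B cell genes had positive differences, with a median of 0.70 and limma adjusted p of 0.992, and their sums overlapped at 52.9 to 638 and 67.8 to 747. Of 6 hepatocyte genes 2 were tested, and Alb, the albumin gene, differed by -2.45 (limma adjusted p = 0.24). The other, Ttr, differed by 0.0040 (limma adjusted p = 0.9996). The part of these cell types in the members' levels was not tested. The 5 pancreas genes summed to at most 3.11 normalized counts in any library.

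**Figure D3:**
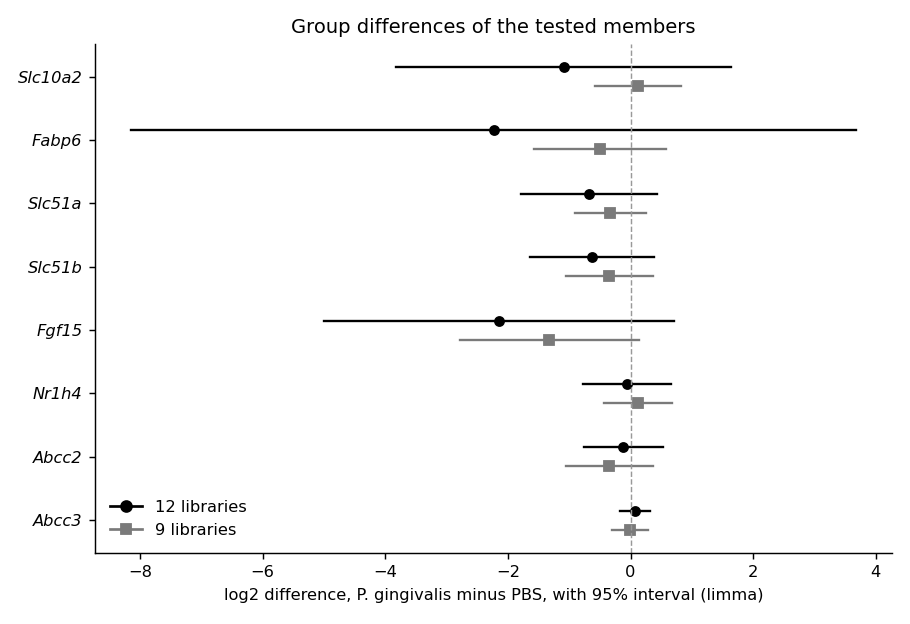
Points show the log2 difference between P. gingivalis and PBS for the 8 tested members and lines its 95% interval from limma, in black with 12 libraries and in grey with the 9 that remain without the 3 high in Fabp1. Every interval includes 0, and those of Slc10a2 and Fabp6 narrow most without the 3 libraries.

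Within the 9 libraries the members did not vary as 1 block. These libraries still differed in proximal markers, with Fabp1 from 18.3 to 1821 and Lct from 0.87 to 9933 normalized counts. Whether the members' levels follow position along the gut was not tested. Correlations of log2 levels were computed for the 28 pairs of tested members, with exact permutation over the libraries and both groups pooled. After Benjamini-Hochberg adjustment over the pairs, 6 passed, and each was positive. The share of pairs of other genes that would pass in these libraries is not given here. The count therefore describes these members and does not set them apart from other genes. Of these, 5 joined Fabp6, Slc51a, Slc51b and Fgf15, which are known targets of Nr1h4. Slc51a and Slc51b had r = 0.95 (exact permutation p = 7.99e-05, adjusted p = 0.00170) and Spearman's rho of 0.97 (exact permutation p = 0.000165, adjusted p = 0.00463). Fabp6 had r = 0.95 with Slc51a (exact permutation p = 0.000201, adjusted p = 0.00188) and 0.95 with Slc51b (exact permutation p = 0.000121, adjusted p = 0.00170). Its r with Fgf15 was 0.84 (exact permutation adjusted p = 0.0295), and Slc51a and Fgf15 had 0.83 (exact permutation adjusted p = 0.0336). Spearman's rho of these 5 pairs ran from 0.83 to 0.97, and all 6 pairs also passed by rho. Without the 2 libraries farthest from the median, these 5 values of r ran from 0.68 to 0.99. Slc51b and Fgf15 had r = 0.74 and did not pass (exact permutation adjusted p = 0.0928). Nr1h4 itself passed with none of these targets. Its r was 0.51 with Fabp6, 0.57 with Slc51a, 0.62 with Slc51b and 0.15 with Fgf15 (exact permutation adjusted p from 0.263 to 0.698).

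The remaining pair that passed was Slc10a2 and Nr1h4, with r = 0.87 (exact permutation p = 0.00289, adjusted p = 0.0202) and rho = 0.87. Without the 2 libraries farthest from the median in Slc10a2, PBS replicate 4 and P. gingivalis replicate 6, it was 0.71. Slc10a2 was not joined to the receptor's targets past the threshold. Its r was 0.42 with Fabp6 (exact permutation adjusted p = 0.427) and 0.20 with Fgf15 (exact permutation adjusted p = 0.622). With Slc51a it was 0.55 (exact permutation adjusted p = 0.275) and with Slc51b 0.48 (exact permutation adjusted p = 0.350). P. gingivalis replicate 6 had the highest Slc10a2 and the lowest Fgf15 of the 9. Without it and PBS replicate 4 the r of Slc10a2 was 0.73 with Fabp6 and 0.73 with Fgf15. With Slc51a and Slc51b it was then 0.88 and 0.72, so the lower values rest on these 2 libraries. Abcc2 had r = -0.59 with Slc10a2 (exact permutation adjusted p = 0.275), which became -0.03 without the same 2 libraries.

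**Figure D4:**
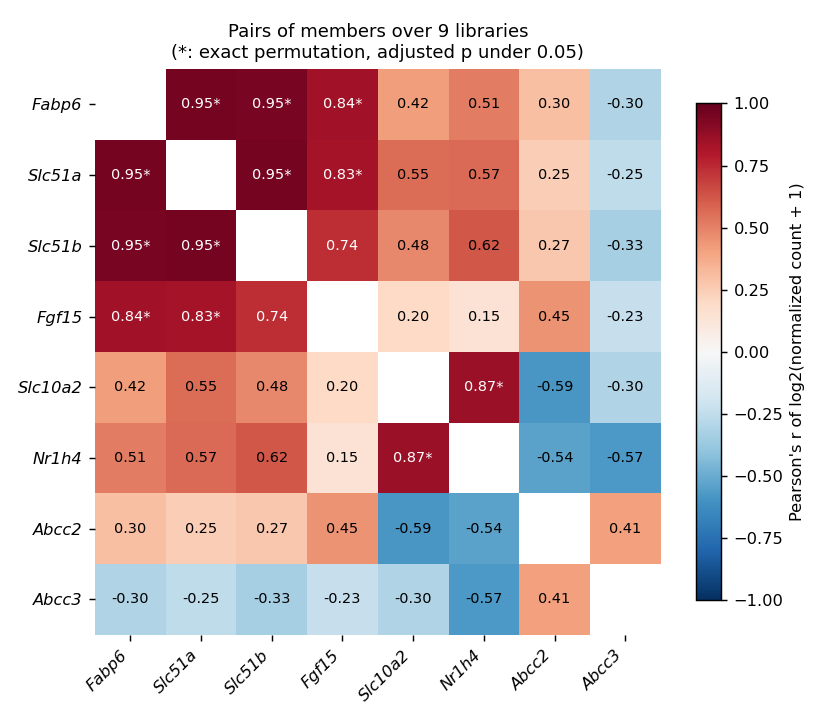
The grid gives Pearson's r of log2(normalized count + 1) over 9 libraries for each pair of the 8 tested members, red for positive and blue for negative, with an asterisk where the exact permutation p adjusted over 28 pairs is under 0.05. Fabp6, Slc51a, Slc51b and Fgf15 form the group at the upper left with r from 0.74 to 0.95, and Slc10a2 pairs with Nr1h4 at 0.87.

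Ratios within a library were compared for 3 pairs of members with related roles, on log2((value + 1)/(value + 1)). Slc51a stood at 3.01 to 4.70 times Slc51b in the PBS libraries and at 3.07 to 4.59 times in the treated group, not corrected for length. The log2 ratio averaged 1.97 ± 0.27 and 1.91 ± 0.22 (SD, n = 6 each), and did not differ past the threshold (exact permutation p = 0.706, two-sided, adjusted over the 3 ratios to 0.706). In the 9 libraries the difference was 0.016 (exact permutation p = 0.937). The ratio of Fgf15 to Nr0b2 averaged 2.95 ± 1.08 and 1.98 ± 1.53 log2 units (exact permutation p = 0.221, adjusted p = 0.662). In the 3 libraries with high Fabp1 this ratio has no meaning, since both genes are at or under 1 read, and in the 9 the difference was -0.36 (exact permutation p = 0.310). The ratio of Abcc2 to Abcc3 averaged 1.82 ± 0.25 and 1.63 ± 0.69 (exact permutation p = 0.665, adjusted p = 0.706), with the lowest value, 0.34, in P. gingivalis replicate 6. In the 9 libraries its difference was -0.34 (exact permutation p = 0.460).

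Other genes of bile acid handling were taken from 4 lists with 46 genes, of which 35 could be tested. None passed, 0 higher and 0 lower, and their differences had a median of -0.05, with 16 positive and 19 negative. Of 11 other transporters of bile acids, sterols and conjugates, 6 were tested. Abcg2, an apical efflux pump, had the smallest p, with a difference of -0.28 (SE 0.30). Slco2b1, an organic anion carrier, differed by 0.09 (SE 0.14) and Abcg5, a sterol exporter subunit, by -0.12 (SE 0.28). Slc10a1 and Abcb11, the hepatocyte uptake and export transporters of bile acids, had at most 1.04 and 1.26 normalized counts in any library.

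Of 18 receptors, partners and regulators, 17 were tested. Klb, the coreceptor of Fgf15, averaged 20.4 ± 9.87 (SD, n = 6) in PBS and 11.6 ± 3.60 (SD, n = 6) in the treated group, which gave -0.68 (SE 0.33, limma adjusted p = 0.992). Cdx2, an intestinal identity factor, differed by -0.25 (SE 0.13) and Fgfr4, the receptor of Fgf15, by -0.20 (SE 0.18). Gata4 is named because of the values it showed. It had 585 to 655 normalized counts in the 3 libraries with the least Slc10a2 and 0 in P. gingivalis replicate 6, which had the most. In the remaining 8 libraries it ran from 67.1 in PBS replicate 1 to 303 in P. gingivalis replicate 2. Gata4 was not alone in this. Of the 17 tested genes of this list, 4 lay higher in each of the 3 libraries than in any of the 9: Gata4, Gata6, Nr1i2 and Nr1i3. Another 3 lay lower in each. Nr1i3 had 885 to 977 normalized counts in the 3 and 67.8 to 387 in the 9.

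Of 12 enzymes of bile acid synthesis and conjugation, 7 were tested. Cyp7a1, the rate-limiting enzyme of the liver pathway, had 0 reads in every library, which allows up to 3 reads per library. Baat, which joins bile acids to amino acids, differed by -0.57 (SE 0.29), Hsd3b7, a steroid dehydrogenase of bile acid synthesis, by -0.24 (SE 0.13) and Cyp27a1, a sterol hydroxylase, by 0.26 (SE 0.38). All 5 enzymes of hydroxylation, sulfation and glucuronidation were tested. Sult2b1, a sulfotransferase, differed by -0.18 (SE 0.18), Cyp3a13, a cytochrome P450, by 0.27 (SE 0.43) and Ugt1a1, a glucuronosyltransferase, by 0.13 (SE 0.28). Across the 4 lists, 5 of the 35 tested genes lay lower in each of the 3 libraries with high Fabp1 than in any of the 9, and 11 lay higher, beside 4.93% and 6.46% of all genes. The 11 included 4 of the 5 enzymes of the last list. Cyp3a11 among them had 4842 to 10339 normalized counts in the 3 and 399 to 4305 in the 9, while Slc10a2 and Fabp6 ran the other way.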

How the data were processed

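RNA was stabilised, purified on columns and made into libraries with an Illumina TruSeq kit, per the labels' protocols. FastQC, HISAT2, Cufflinks, DESeq2 and GRCm38 (mm10) are named in the submitters' processing notes, and how reads were counted, with which strand setting and which annotation, is not given in the sources used here. The deposited table holds a normalized signal, reads per gene scaled by the authors with a library size factor, judging from the deposited file and its values. Each was a whole multiple of 1 step, which gave whole reads for 100% of values within 0.001 reads. Total depth sets the precision. No libraries were copies of each other (smallest chi-square per degree of freedom 6.53).

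Groups were compared with limma 3.58.1 (R 4.3.3, mean-variance trend) on log2(normalized count + 1), for genes with a mean of at least 10 over the 12 libraries, two-sided, with Benjamini-Hochberg adjustment over all 15025 genes. The steps were tested on simulated counts in which no libraries were set apart, so that test does not cover gaps like those of the libraries with high Fabp1. Alternatives were edgeR 4.0.16 and DESeq2 1.42.0 on recovered reads, other pseudocounts, filters and scalings, sample weights, a proximal marker score, a replicate block and left-out libraries. Leaving out P. gingivalis replicate 6 with the 3 libraries was chosen after seeing the data, as were the promoter motifs. The members, lists and tests were chosen with earlier results of these data known. Named genes were the members, the 3 genes with the smallest p of each pathway list where none passed, and the 5 genes most correlated with Slc10a2 and with Fgf15.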

Additional observations from a re-analysis of the deposited data

Results flagged for a closer look

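Of 50 sets of 6 values examined, 1 had a single library set widely off from the other 5, where chance gives about 1 in 20. Cyp27a1, the sterol hydroxylase, stood at 1093 normalized counts in PBS replicate 6, against 307 to 587 in the other PBS libraries. PBS replicate 6 is 1 of the 3 libraries with high Fabp1, and the other 2, P. gingivalis replicates 1 and 5, had the next highest and the highest of the P. gingivalis group, within 938 to 1237.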

How the results depend on the processing

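No member and no other pathway gene passed under any alternative run, and edgeR on recovered reads called 0 of 14907 genes (542 unadjusted, p under 0.05). The count over all genes was 0 in the main analysis. It became 1 with a pseudocount of 5 (Apoc1), 31 with DESeq2, 20 with sample weights, 1 with 9 libraries (Bcl6), 36 with the proximal marker score as a covariate and 9 with 8 libraries, and ran from 0 to 53 with 1 library left out, highest without P. gingivalis replicate 6. It was 7 without PBS replicate 5, 1 without PBS replicate 6 (Bcl6) and 1 without P. gingivalis replicate 2 (Alb). The 3 genes named here are no members and were named after their values were seen. The cause was not tested.

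Direction turned for some differences. With 9 libraries the difference was 0.13 for Slc10a2, which was -1.09 with 12, 0.12 for Nr1h4, -0.0048 for Abcc3, -0.0036 for Slco2b1, -0.10 for Cyp3a13 and -0.049 for Ugt1a1, and 0.016 for the log2 ratio of Slc51a to Slc51b. With 8 libraries it was 0.054 for Abcc2, 0.051 for Abcg5, 0.035 for Sult2b1, 0.0081 for the ratio of Slc51a to Slc51b and 0.021 for that of Abcc2 to Abcc3. Nr1h4 was 0.041 with the score as a covariate. Abcc2 was 0.024 with edgeR, 0.028 with DESeq2 and 0.014 with sample weights. Leaving out 1 library in turn gave -0.26 to 0.11 for Nr1h4, -0.25 to 0.18 for Abcc2, -0.019 to 0.15 for Slco2b1, -0.23 to 0.15 for Abcg5 and -0.039 to 0.34 for Ugt1a1. The ratios ran from -0.13 to 0.0069 for Slc51a to Slc51b, from -0.29 to 0.074 for Abcc2 to Abcc3 and from -1.35 to -0.57 for Fgf15 to Nr0b2. For Fgf15 the range was -3.06 to -1.45, for Fabp6 -4.31 to -0.48 and for Slc10a2 -1.84 to -0.18.

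No pairing by the numbers in the titles was seen. Same-numbered libraries correlated from -0.54 to 0.08 in their deviations from the group means, and none of the 6 PBS libraries was closest to its own number. Wide differences between libraries, as in Fabp1, could hide a weaker shared factor, so pairing is not excluded. With a replicate block 0 genes were called and 462 had an unadjusted p under 0.05. Nr0b2 and Gpbar1 are limited by depth.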

Other observations

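The genes whose pattern over the libraries was most like that of Slc10a2 and of Fgf15 were ranked by Pearson's r of log2(normalized count + 1) among the tested genes that are no members. Over 12 libraries the leading 5 for Slc10a2 were Mgat4c, Cutal, Oprk1, Mfhas1 and Neu1, with r from 0.987 to 0.991. These values rest mainly on the gap between the 3 libraries with high Fabp1 and the other 9. Mgat4c, a glycosyltransferase gene, had 85.7 to 245 normalized counts in the 3 and 2418 to 3505 in the 9. Oprk1, the kappa opioid receptor gene, had 1.26 to 3.43 and 79.8 to 189.

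Over the 9 libraries the leading 5 for Slc10a2 were other genes: Ankrd37, Lamb3, Trak2, Vezf1 and Smim15, with r from 0.94 to 0.98. For Fgf15 the leading 5 over 12 libraries were Echdc1, Krt18, Creb3l4, Dusp12 and Gm21885, with r from 0.964 to 0.965. Over the 9 they were Hsd3b7, Cftr, Fam175a, Tbcc and Gm21885, with r from 0.92 to 0.98. Hsd3b7, an enzyme of bile acid synthesis, headed that ranking at r = 0.98, with 284 to 390 normalized counts in the 9 libraries and 218 to 269 in the 3. Being the highest of many genes, these values are descriptions and carry no p.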
